A study of Mus musculus with 4 samples.

Results

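Replication-dependent histone genes supply the histones that package newly copied DNA. They were taken here as every row of a liver gene table whose symbol starts with Hist1h, Hist2h, Hist3h or Hist4h, which gave 59 of 21827 rows. RNA came from livers of untreated male and untreated female CD-1 mice, an outbred stock, all 8 weeks old. For each sex, RNA of 12 livers was combined into 2 pools of 6, and all 4 pools were sequenced after enrichment for poly-A RNA, keeping strand. The table gives 1 value per gene and sex, so the spread between pools could not be computed, and no value stands for a single animal.

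A replication-dependent histone message usually ends in a short stem-loop instead of a poly-A tail, and the stem-loop binding protein Slbp holds that end through processing and translation. These messages accumulate in S phase and are degraded when DNA synthesis stops, so they are scarce in a tissue such as adult liver where few cells divide. Selection for poly-A keeps only the part of them that carries a tail, and the levels below describe that part. In whole-liver RNA, fewer cells of a type and less RNA per cell cannot be told apart.

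The message ends were read from the reference to show which members carry the stem-loop and which also have a poly-A signal. The stem-loop motif (GG, a pair of free bases, CTTTT, 1 free base, AG, a pair of free bases and CC, in this order), searched on the transcript strand after the stop codon of 1 GENCODE vM21 transcript per gene (GRCm38), was present in 36 of 59 members (61%). Searched over the whole length of all 58797 protein-coding transcripts, those of the members included, it was present in 98 (0.167%). The loop began 21 to 54 bases after the stop codon (median 31). Of the 23 members without a match, 15 had an annotated 3′ end too short to hold it and 8 had room for it. Introns were not searched, so a match in the intron of Hist1h2bc, counted among the 8, would be missed. A total of 6 core sequences were found, and they fell by histone class. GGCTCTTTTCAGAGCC stood in 18 members of the H1, H2A, H2B and H3 classes, while all 11 H4 members with a match had 1 of 3 cores not seen in the other classes. The following stem-loops belong to members that had reads, with the stem and loop in capitals and 5 bases on each side.
Hist1h1c, chr13:23739507-23739532, + strand: caaaaGGCTCTTTTCAGAGCCaccac
Hist1h1d, chr13:23555782-23555807, + strand: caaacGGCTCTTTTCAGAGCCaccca
Hist1h2ac, chr13:23683472-23683497, - strand: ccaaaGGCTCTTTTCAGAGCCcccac
Hist1h2bm, chr13:21722501-21722526, + strand: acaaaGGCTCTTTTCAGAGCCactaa
Hist2h3c1, chr3:96247322-96247347, + strand: acaaaGGCTCTTTTCAGAGCCaccac
Hist1h3c, chr13:23745042-23745067, - strand: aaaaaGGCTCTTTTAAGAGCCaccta
Hist1h4h, chr13:23531453-23531478, + strand: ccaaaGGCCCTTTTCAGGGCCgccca
Hist2h4, chr3:96262934-96262959, - strand: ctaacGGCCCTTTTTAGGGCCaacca

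RefSeq ends 35 of the 36 genes with a stem-loop within 10 bases of its last base (median 5 bases), whereas GENCODE carries some of the same transcripts much further. Beyond the loop it continued for 840 bases in Hist1h1c, 1167 bases in Hist2h3c1, 1257 bases in Hist2h4, 2010 bases in Hist1h2ac and 4884 bases in Hist1h1d. A poly-A signal (AATAAA or ATTAAA) began within the last 40 bases of the GENCODE transcript in 14 members. Members without reads in either sex were among these 14, such as Hist3h2ba, Hist1h4j, Hist4h4 and Hist1h1t. Hist1h1d, Hist1h2ac and Hist2h2bb, which were called between the sexes, had no such signal. The ends of 4 members with a signal and a high level or a call are shown, with the signal in capitals. Those of Hist1h1c, Hist2h3c1 and Hist2h2be are GENCODE transcript ends. That of Hist1h2bc, whose GENCODE end had no signal, is the end of the RefSeq gene. All are in GRCm38 on the + strand.
Hist1h1c, chr13:23740338-23740367, + strand: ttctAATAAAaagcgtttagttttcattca
Hist2h3c1, chr3:96248480-96248509, + strand: taatcccAATAAAaatttaacacactgcta
Hist2h2be, chr3:96223709-96223738, + strand: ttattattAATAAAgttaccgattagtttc
Hist1h2bc, chr13:23692451-23692480, + strand: gatgtatatatAATAAAtgtcatgtaaagc

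Most members gave no reads. Of the 59, 40 (67.8%) lay in both sexes at the floor of the scale, against 6590 of all 21827 rows (30.2%). The floor is the level given to a gene with no reads, and it differs between rows because it depends on their length. For a further 9 members with reads in a single sex (3 in male and 6 in female liver) the authors set the ratio to 1. The remaining 10 members (16.9%) had a ratio between the sexes, Hist1h2ac among them although its reads were all female, against 13763 of all rows (63.1%). For the 40 members at the floor, a limit of 3 reads allows a level of up to 0.126 to 0.86 RPKM in male liver and up to 0.0961 to 0.657 RPKM in female liver, depending on the row. These members are therefore not detected at this depth, which was implied from the floor as 11241814 reads in male and 14719686 reads in female liver.

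Sex differences among the 10 compared members ran mostly one way. At the authors' adjusted p under 0.05, 0 members were higher in male liver and 6 were higher in female liver, by the authors' deposited table. Of all 13763 compared rows, 7.21% were called male-higher and 10.2% female-higher by the same rule. Under the stricter p of 0.01 the members' counts were 0 and 5, against 4.16% male-higher and 6.05% female-higher rows. The 10 normalized log2 ratios (male over female) had a median of -0.77, and 2 were positive and 8 negative, beside a median of -0.02 over all compared rows. Hist1h2ac, which had no implied male reads, still lies below the median when set at its bound of 2.29-fold. The median then stays at -0.77 by construction, which is not read as support. The 10 are the members with enough reads to be compared, and nothing is read from them about the other 49. Whether the whole list stands apart from other genes was not tested.

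**Figure D1:**
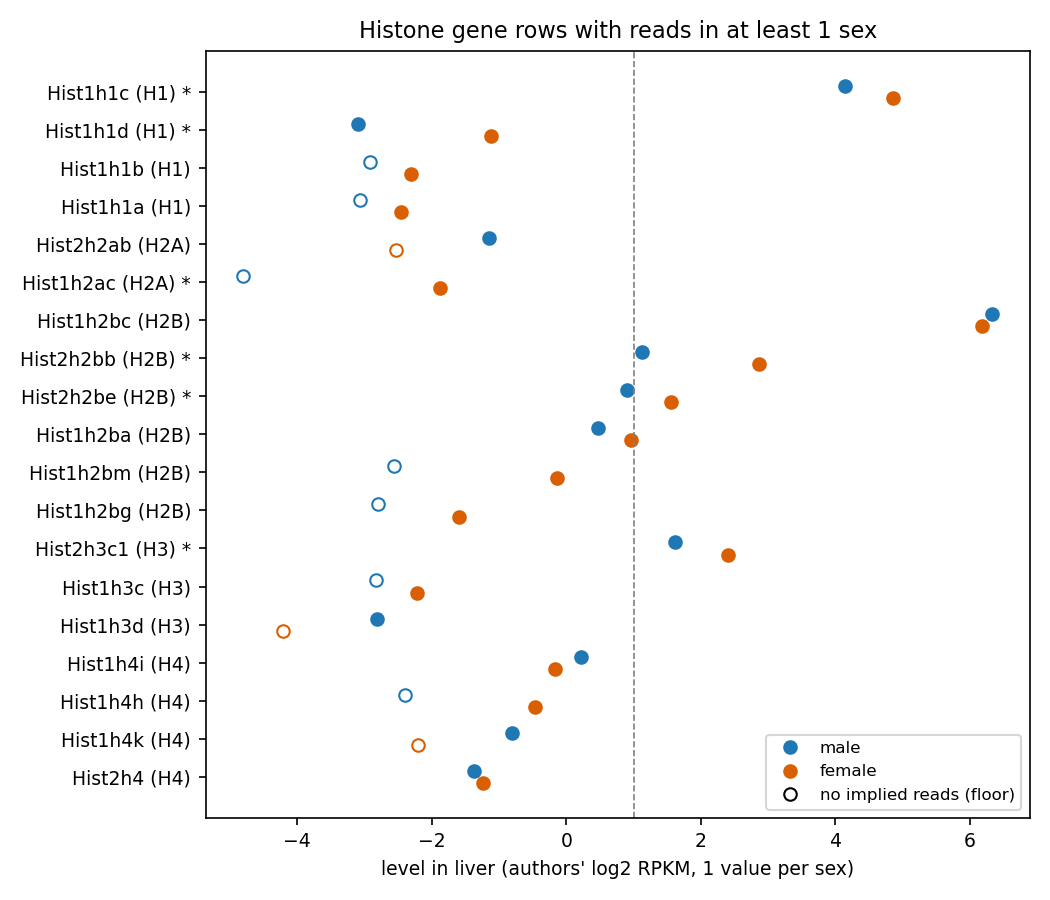
Levels of the 19 histone gene rows with reads in at least 1 sex, as the authors' log2 RPKM (horizontal axis), with the male value above the female value in each row and rows grouped by histone class. Open points have no implied reads, an asterisk marks an authors' adjusted p under 0.05, and the dashed line is at a log2 RPKM of 1. The 6 marked genes have the female point to the right, and Hist1h2bc and Hist1h1c stand above all the others.

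Linker histones of the H1 class bind the DNA between nucleosomes. Hist1h1c (13, 23830676 to 23832236, mm9, + strand), the gene of linker histone H1.2, had 17.6 RPKM in male and 29.0 RPKM in female liver, the second highest level among the members. It was 1.79-fold higher in female liver (adjusted p = 6.46e-05, the authors' deposited table). With the row span taken as the length, which is within 1% of that of the GENCODE transcript, the levels imply 308 male and 665 female reads. Counting error alone gives a 95% interval of 1.44 to 1.89 for the fold of female over male, scaled by implied depth.

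Hist1h1d (13, 23646901 to 23650721, mm9, + strand), which encodes linker histone H1.3, was a low gene with 0.117 RPKM in male and 0.464 RPKM in female liver. It was 4.92-fold higher in female liver (adjusted p = 0.0003, the authors' deposited table). This rests on 4 implied reads in male and 25 in female liver, and the counting interval of the fold runs from 1.65 to 18.9. Both H1 genes with a ratio were thus higher in female liver. Of the other 3 H1 members, Hist1h1a and Hist1h1b had 0 implied reads in male and 1 each in female liver, and Hist1h1t, a testis-specific linker histone gene, lay at the floor in both sexes.

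The H2A and H2B proteins pair as dimers in the nucleosome core. Of 14 H2A members, 12 lay at the floor in both sexes. Hist1h2ac (13, 23773336 to 23775828, mm9, - strand) had a level of 0.0358 RPKM in male and 0.274 RPKM in female liver, with 0 implied reads in male and 9 in female liver. With up to 3 male reads allowed and the 9 female reads taken as exact, the fold of female over male would be at least 2.29. With counting error in both sexes it can be as low as 1.51. Its adjusted p was 0.00874 in the authors' deposited table. Hist2h2ab had 1 implied male read and no female read.

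H2B held both the highest member and the largest difference at a level of at least 1 on the log2 RPKM scale. Hist2h2bb (3, 96073647 to 96082924, mm9, + strand) had 2.18 RPKM in male and 7.25 RPKM in female liver. It was 3.61-fold higher in female liver (adjusted p = 2.19e-09, the authors' deposited table). No reads are implied for it, because the length behind its level is unknown: the row spans 9278 bases, against 493 for the RefSeq gene and 381 for the GENCODE transcript. Nothing in the sources used here says what else was counted in that span.

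Hist2h2be (3, 96025044 to 96027661, mm9, + strand) had 1.87 RPKM in male and 2.96 RPKM in female liver and was 1.63-fold higher in female liver (adjusted p = 0.0219, the authors' deposited table). With its row span taken as the length, the levels correspond to 54 implied male and 113 implied female reads, with a counting interval of 1.15 to 2.25 for the fold. Its call is lost at an adjusted p under 0.01, where the other 5 remain. Hist2h2be was taken as a member by its symbol. No stem-loop was found in the 2192 bases after its stop codon, and AATAAA begins 22 bases before its GENCODE end. That it is replication-dependent is therefore not shown here. Hist2h2be, with a log2 RPKM of 0.90 in male and 1.56 in female liver, was also the lowest member above a level of 1 in a sex. The next below was Hist1h2ba, with 0.47 in male and 0.96 in female liver. Hist1h2ba, a testis-specific H2B gene, had 5 implied reads in male and 10 in female liver, and its difference did not pass the threshold (adjusted p = 0.618 in the authors' deposited table). Hist1h2bm had 0 implied reads in male and 6 in female liver, Hist1h2bg had 0 and 2, and the other 10 H2B members lay at the floor.

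Hist1h2bc (13, 23776068 to 23784349, mm9, + strand) was by far the highest member and was not called. It had 80.7 RPKM in male and 72.0 RPKM in female liver, with a normalized log2 ratio of 0.14 and an adjusted p of 0.504 in the authors' deposited table. With an exon length of 728 bases up to the RefSeq gene end, not the row span of 8282 bases, the levels imply 659 male and 770 female reads, and the counting interval of male over female runs from 1.01 to 1.25, without error between pools. Hist1h2bc is unlike most of the family in its annotation: GENCODE gives it 2 exons, of which the first has 423 bases, with an intron of 7554 bases. No stem-loop was found in the spliced transcript. The first exon ends soon after the stop codon, before the distance at which loops began in other members. The intron that follows was not searched, so the absence of a stem-loop from the gene is not shown. The AATAAA shown above begins 19 bases before the RefSeq gene end. It alone made up 68.2% of the summed member RPKM in male and 55.6% in female liver.

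H3 and H4 form the central tetramer of the nucleosome. The single H3 member with a ratio, Hist2h3c1 (3, 96049477 to 96052432, mm9, + strand), had 3.07 RPKM in male and 5.33 RPKM in female liver. Female liver was 1.78-fold higher (adjusted p = 0.0012, the authors' deposited table). As for Hist2h2bb, the row is longer than the gene, with 2956 bases against 664 in RefSeq, and no reads are implied. Among the other 10 H3 members, 8 lay at the floor, Hist1h3d had 1 implied read in male and none in female liver, and Hist1h3c had none in male and 1 in female liver.

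H4 was the class without a call. Hist1h4i had 1.16 RPKM in male and 0.886 RPKM in female liver, from 6 implied reads in each sex, and Hist2h4 had 0.387 RPKM in male and 0.422 RPKM in female liver, from 6 male and 9 female reads. Their adjusted p-values were 1 and 0.796 in the authors' deposited table. The counting interval of male over female ran from 0.35 to 4.9 for Hist1h4i and from 0.256 to 2.75 for Hist2h4, so a difference of the size seen for Hist1h1c was not detectable in either at this depth. Of the other 11 H4 members, 9 lay at the floor, Hist1h4k had 1 implied male read and no female read, and Hist1h4h had no implied male read and 4 female reads.

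**Figure D2:**
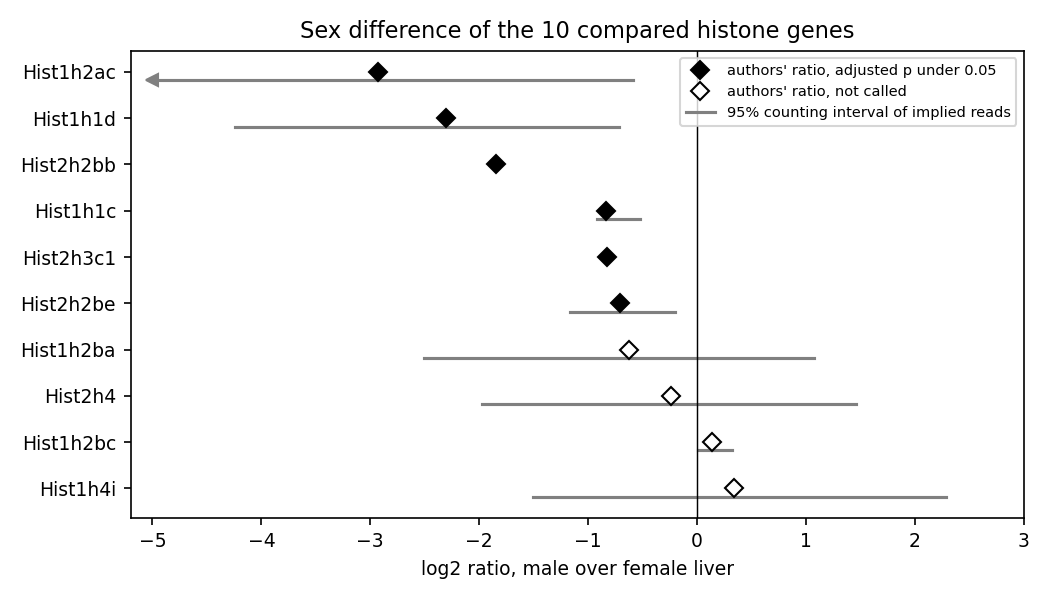
Log2 ratio of male over female liver (horizontal axis) for the 10 compared histone genes, ordered by size. Diamonds are the authors' normalized ratio, filled where their adjusted p is under 0.05, and grey lines are 95% counting intervals of the implied reads, with an arrow where the lower end is open; Hist2h2bb and Hist2h3c1 have no line because no reads are implied. The 6 filled diamonds lie left of 0, while the intervals of Hist1h2ba, Hist2h4 and Hist1h4i span it.

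With the floor taken off, summed levels were higher in female liver for H1 and H3 and nearly equal for H2B. H1 members summed to 17.6 RPKM in male and 29.6 RPKM in female liver, nearly all of it Hist1h1c. H3 members summed to 3.11 RPKM in male and 5.41 RPKM in female liver, nearly all of it Hist2h3c1. H2B members, led by Hist1h2bc, summed to 85.7 RPKM in male and 84.8 RPKM in female liver, and H2A and H4 members stayed under 2 RPKM in each sex. By position, the 7 members of the Hist2 cluster on chromosome 3 summed to 7.6 RPKM in male and 15.9 RPKM in female liver, and 3 of the 4 compared there were called. Most of these Hist2 sums came from Hist2h2bb and Hist2h3c1, the rows whose length is unknown. The 50 members of the Hist1 cluster on chromosome 13 summed to 101 RPKM in male and 106 RPKM in female liver, with 3 of 6 compared called. Of all compared rows, 7.21% were called male-higher and 10.2% female-higher, and both clusters have too few compared members for a close reading. The single Hist3 and Hist4 members lay at the floor.

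All 59 rows as deposited, floor included, summed to 118 RPKM in male and 129 RPKM in female liver, a ratio of male over female of 0.914. Without Hist1h2bc the sums were 37.7 RPKM in male and 57.5 RPKM in female liver, and the ratio was 0.655. With Hist1h1c left out as well the ratio was 0.704. A sum over the family therefore depends on 1 gene, and these sums have no error estimate, since the table gives no value per pool.

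Many H2A and H2B genes lie head to head and share the stretch between their starts. By the table's coordinates, 11 such pairs had starts at most 500 bases apart, all of them an H2A and an H2B gene, with 175 to 305 bases between. In 7 pairs both genes lay at the floor in both sexes. In the other 4 the H2B gene had the higher level in both sexes, with the Hist1h2bg pair at the floor in male liver as the exception. The widest gap was in the pair 239 bases apart, where Hist1h2ac and Hist1h2bc had 0.0358 and 80.7 RPKM in male liver and 0.274 and 72.0 RPKM in female liver. Likewise Hist2h2be had 54 male and 113 female implied reads, while Hist2h2ac, 240 bases away, had none in either sex.

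**Figure D3:**
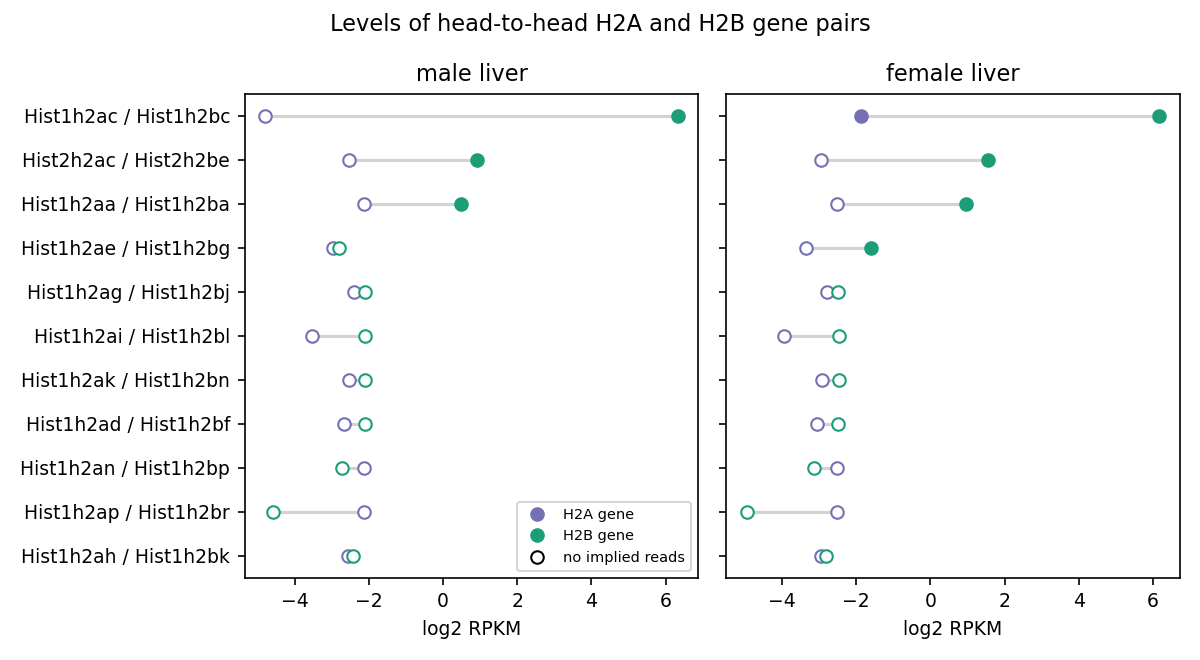
Levels (log2 RPKM, horizontal axis) of the 11 head-to-head H2A and H2B gene pairs in male liver (left) and female liver (right), with a line joining the partners. Open points have no implied reads and sit at the floor, which differs with row length. The Hist1h2ac and Hist1h2bc pair has the longest line in both panels, and 7 pairs have open points throughout.

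The stretch upstream of Hist1h2ac, which faces Hist1h2bc, is shown because its 2 genes had such different levels and only 1 was called. Promoter windows of RefSeq genes (GRCm38.p6), from 250 bases before to 50 after the start, were searched on both strands for CCAAT, for TATAAA and for ATTTGCAT, the octamer found in H2B promoters. For Hist1h2ac, CCAAT or its reverse complement began 169, 98 and 69 bases before the start, TATAAA began 32 bases before it and the reverse complement of the octamer 130 bases before it. These matches are in capitals.
Hist1h2ac, chr13:23683910-23684209, - strand: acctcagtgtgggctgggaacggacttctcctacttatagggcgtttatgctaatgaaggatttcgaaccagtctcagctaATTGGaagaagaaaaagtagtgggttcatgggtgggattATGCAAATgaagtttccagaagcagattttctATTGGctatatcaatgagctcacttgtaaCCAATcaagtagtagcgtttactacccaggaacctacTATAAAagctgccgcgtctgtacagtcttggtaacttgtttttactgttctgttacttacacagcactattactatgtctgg

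A promoter window was matched for 54 of the 59 members. Hist1h2bc, Hist2h2be, Hist2h4, Hist1h3a and Hist1h3f had none, so the H2B counts leave out the highest member and Hist2h2be. CCAAT was present in 45 of the 54 (83.3%), against 37.4% of all 32851 windows. TATAAA was present in 61.1% of member windows, against 13.6% of all windows, and ATTTGCAT in 22.2%, against 1.74%. By class, CCAAT was in 14 of 14 H2B windows and in 3 of 12 H4 windows, and windows without it were all of H4 genes. ATTTGCAT was in 6 of 14 H2B windows and in 0 of 12 H4 windows. It was not particular to H2B, since its other windows were of the H2A genes Hist1h2ac, Hist2h2ac, Hist1h2ah, Hist1h2ae, Hist1h2ab and Hist1h2aa. Windows of head-to-head genes can overlap, so a match can be counted for both genes. These are matches of letters in a window and were not tested for binding.

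The length of the row went with having a value. Rows at the floor had a median span of 475.5 bases and compared rows one of 2555.5 bases. The 6 called members had spans of 1561 to 9278 bases. Of 10 rows of at least 1500 bases, a length chosen after the values were seen, 8 were compared and 6 called, and of 49 shorter rows 2 were compared and 0 called. Over rows of any length 63.1% were compared, and of these 7.21% were called male-higher and 10.2% female-higher. The same split by length is not given for all rows, so it is not read as a trait of the members. In 8 members the row was over 500 bases longer than the RefSeq gene, and 5 of these were among the 6 called, with Hist2h2be, whose row spans 2618 bases against 2667 in RefSeq, as the exception. Of the 6 called members, 4 have a stem-loop and a GENCODE transcript that runs on past it (Hist1h1c, Hist1h1d, Hist1h2ac and Hist2h3c1), while Hist2h2be has none in the 2192 bases after its stop codon. The GENCODE transcript of Hist2h2bb ends with the coding sequence, so nothing can be said of a stem-loop there. The part of row length, which sets how many reads a row can collect, in the calls was not tested.

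**Figure D4:**
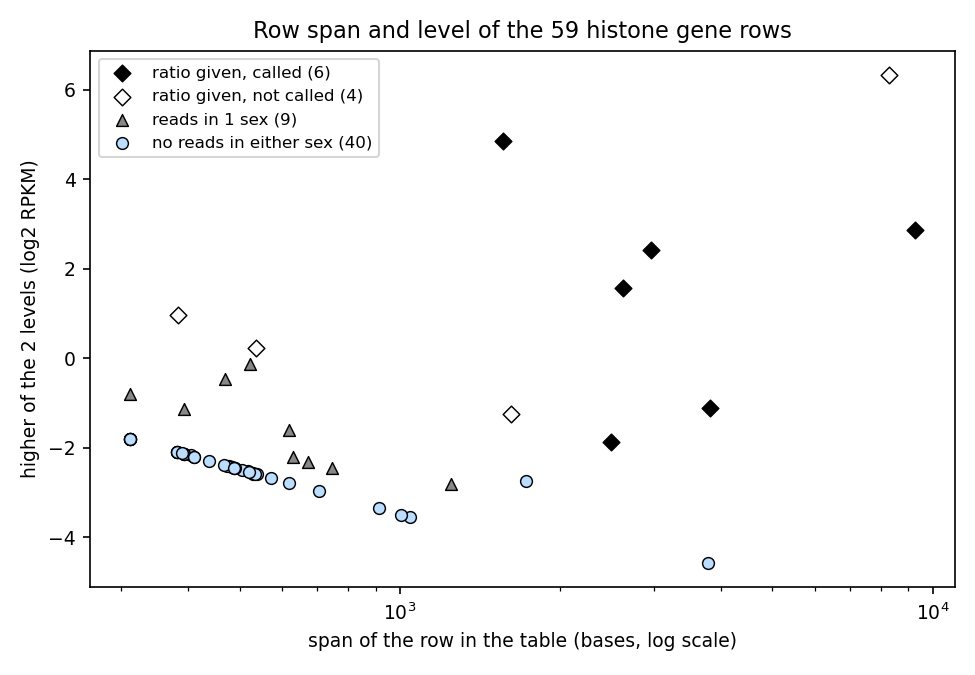
Row span in the authors' table (horizontal axis, bases, log scale) against the higher of the 2 levels (vertical axis, log2 RPKM) for the 59 histone gene rows. Filled diamonds are the 6 called members, open diamonds the 4 compared and not called, triangles the 9 with reads in 1 sex, and circles the 40 at the floor. The called members lie at 1561 bases and above, and the circles mark the floor, which falls as the length behind a row grows.

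Many members are near copies of each other. Of 49 members that have another member with a coding sequence of the same length, 39 were at least 95% identical to the nearest one (median 98.4%). Hist1h2ac was 99.0% identical to Hist1h2ag and Hist1h2bc 99.0% to Hist1h2bj, both of which lay at the floor, while Hist2h2be reached 87.9% and Hist2h2bb 89.5%. The sources used here do not say how reads matching several copies were treated, so the split of reads among near copies is uncertain. Among the members, 1 row, Hist1h4b, overlapped another row of the table, and it lay at the floor.

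Of 35 compared genes that process and supply histone messages, 2 were male-higher and 3 female-higher at an adjusted p under 0.05, and the genes had a median log2 ratio of -0.02. These 14.3% lie near the 17.4% of all compared rows called in either direction (7.21% male-higher and 10.2% female-higher), and the median is that of all compared rows. Hinfp, a factor of H4 gene promoters, and Npat, the coactivator of histone gene transcription, had higher levels in male liver, by 1.78-fold and 1.54-fold (adjusted p = 0.00282 and 0.0141, the authors' deposited table). Zcchc11 and Tut1, which encode uridylyl transferases, were 1.44-fold and 1.41-fold higher in female liver (adjusted p = 0.011 and 0.033, the authors' deposited table). Slbp, named for its role and after its value was seen, had 8.92 RPKM in male and 11.6 RPKM in female liver and did not pass the threshold (adjusted p = 0.223 in the authors' deposited table).

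Variant histone genes are mostly expressed outside S phase too, with poly-A messages, although H2afx is known to give a stem-loop message as well. In liver H2afy and H3f3b exceeded every member except Hist1h2bc. H2afy, the gene of macroH2A1, had 46.4 RPKM in male and 43.3 RPKM in female liver, and H3f3b, a gene of H3.3, had 37.6 RPKM in male and 42.2 RPKM in female liver. Neither passed the threshold. Of 10 compared variants, 0 were male-higher and 2 female-higher (median log2 ratio 0.02), which is 20% beside 17.4% of all compared rows. These 2 were H2afx, a variant known for its part in the DNA damage response (3.47 RPKM in male and 5.76 RPKM in female liver, 1.79-fold, adjusted p = 0.00385 in the authors' deposited table), and H2afy2, the gene of macroH2A2. H2afy2 had 0.178 RPKM in male and 0.646 RPKM in female liver (4.6-fold, adjusted p = 0.0159 in the authors' deposited table).

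Histone chaperones carry histones to DNA. Of 25 compared, 1 was male-higher and 2 were female-higher (median log2 ratio 0.03), which is 12% beside the same 17.4%. Hat1, which acetylates new H4, had 4.45 RPKM in male and 9.77 RPKM in female liver and was 2.22-fold higher in female liver (adjusted p = 2.76e-05, the authors' deposited table). Asf1b, a carrier of H3 and H4, had 0.0996 RPKM in male and 0.381 RPKM in female liver (adjusted p = 0.0241 in the authors' deposited table). Rbbp4, a subunit of several histone-binding complexes, was 1.3-fold higher in male liver (adjusted p = 0.0494, the authors' deposited table).

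Called genes of DNA replication went both ways, and those of mitosis were female-higher. Of 45 compared S phase genes, 6 were called male-higher and 7 female-higher (median log2 ratio -0.06), which is 28.9% beside 17.4% of all compared rows. Their summed level was 175 RPKM in male and 154 RPKM in female liver, so the sum and the median differ in direction. Nearly all of the gap between the sums came from a single gene, Mcm10. Mcm10, a replication initiation factor, had 29.5 RPKM in male and 8.06 RPKM in female liver and was 4.06-fold higher in male liver (adjusted p = 1.89e-22, the authors' deposited table). Gins2 and Ccne1 were also higher in male liver, by 5.12-fold and 3.38-fold, and Pold1, a DNA polymerase subunit, was 2.73-fold higher in female liver (adjusted p = 0.0155, 0.00614 and 0.017 in the authors' deposited table). These 3 genes were low. Gins2 had 0.313 RPKM in male and 0.0737 RPKM in female liver, Ccne1 0.844 and 0.272 RPKM, and Pold1 0.28 and 0.699 RPKM.

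Of 19 compared genes of G2 and mitosis, 0 were male-higher and 9 female-higher (47.4%), beside 7.21% male-higher and 10.2% female-higher of all compared rows. Their median log2 ratio was -1.28, beside -0.02 over all rows compared. Plk1, a mitotic kinase gene, had 0.121 RPKM in male and 0.524 RPKM in female liver (adjusted p = 0.00543 in the authors' deposited table). Tpx2, a spindle factor, had 0.171 RPKM in male and 0.62 RPKM in female liver (adjusted p = 0.00074, the authors' deposited table). Kif11 and Cenpe, motor proteins of the spindle and kinetochore, were 3.84-fold and 4.84-fold higher in female liver (adjusted p = 8.25e-05 and 0.0332, the authors' deposited table). These genes were low, with a summed level of 7.68 RPKM in male and 12.3 RPKM in female liver. Their part in the histone differences was not tested.

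**Figure D5:**
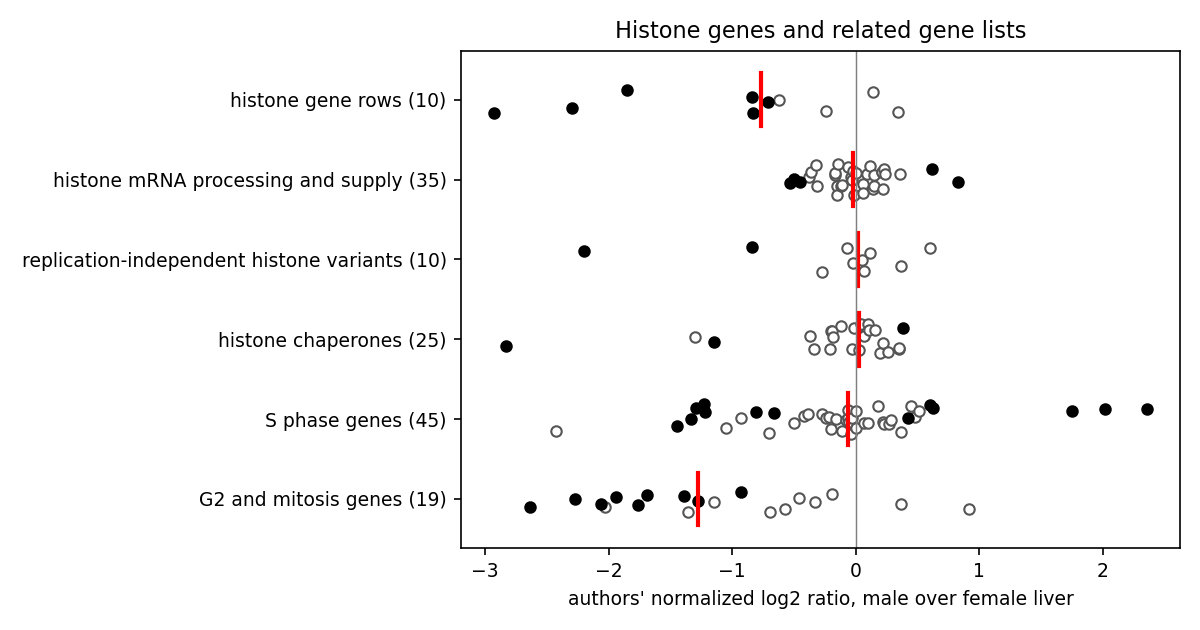
Authors' normalized log2 ratios of male over female liver (horizontal axis) for the 10 compared histone genes and for 5 related gene lists, with the number compared in brackets. Filled points have an authors' adjusted p under 0.05 and red bars are medians. The histone gene rows and the G2 and mitosis genes have medians of -0.77 and -1.28, and the other 4 lists have medians between -0.06 and 0.03.

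Markers of the liver's cell types were set beside these results, with lists too short for their shares to be read closely against the 7.21% male-higher and 10.2% female-higher rows overall. Hepatocyte markers were at very high levels (1 of 5 male-higher and 1 of 5 female-higher, median log2 ratio -0.17). Among macrophage markers, 0 of 7 were male-higher and 4 of 7 female-higher (median -0.41, summed level 168 RPKM in male and 213 RPKM in female liver). For stellate cells the counts were 0 and 3 of 5 (median -0.49, 91.9 RPKM in male and 123 RPKM in female liver), for endothelium 0 and 1 of 6 (-0.23, 104 and 118 RPKM in male and in female liver) and for cholangiocytes 0 and 1 of 4 (-0.59, 2.57 and 3.6 RPKM in male and in female liver).

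None of 4 T cell, 4 B cell or 4 neutrophil markers was called (medians -0.73, 0.76 and 0.62). Their summed levels were 1.18 RPKM in male and 1.73 RPKM in female liver for T cells, 2.26 and 1.35 RPKM for B cells, and 6.29 and 9.06 RPKM for neutrophils, whose sum and median differ in direction. Of 4 erythroid markers, 1 was male-higher and 0 were female-higher (median 0.29, 172 RPKM in male and 97.5 RPKM in female liver). Most of the gap between these sums was Alas2, the called marker, with 86.2 RPKM in male and 13.4 RPKM in female liver. Hbb-b1 had 73.7 RPKM in male and 73.8 RPKM in female liver, and neither it nor Hba-a1 or Klf1 was called. Camp, a neutrophil marker, lay at the floor in both sexes. The part of these cell types in the histone differences was not tested.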

How the data were processed

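The authors deposited 1 table with, per the file headers, log2 RPKM per sex, a normalized log2 ratio of males over females, its linear ratio, a signed fold score, and an adjusted p-value. The authors' Bowtie, edgeR and mm9 are named per the submitters' processing notes, with neither version nor role; read assignment, strand use in counting and the adjustment method are not given in the sources used here. Because the table combines the pools of a sex, the planned test on counts per pool could not be run, and calls are the authors' adjusted p under 0.05. The 2 pools of a sex are separate sets of livers, per the labels.

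Rows at the floor (ratio 1, levels 0.389 apart on the log2 scale) share an adjusted p of 0.026 that was not used; 14 rows had no level. The added value was taken as 1 read: in 79 low rows the authors' ratio was closer with 1 read taken off in 73. Depth was implied from 1058 olfactory receptor rows at the floor, with female depth 1.31 times the male depth. Implied reads are a level over the level of 1 read, less 1, and were taken for 57 members: 40 at the floor, 14 at whole multiples for their row span, and Hist1h1c, Hist2h2be and Hist1h2bc, whose reads are too many for such a check and rest on an assumed length. Ratios of reads have exact (Clopper-Pearson) 95% intervals covering counting error alone, and PCR copies are not independent molecules. Motifs were searched in GENCODE vM21 transcripts and RefSeq promoter windows with Python 3.11.15 and scipy 1.17.1; coordinates were not converted between builds.

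Named members are those called, those with a log2 RPKM of 1 or more in a sex, and those beside that level; others are named for a stated reason. Up to 4 called genes per list are named by ratio, or 2 of the highest level; not all are given. Members and lists were chosen with earlier results of these data known.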

Additional observations from a re-analysis of the deposited data

Results flagged for a closer look

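A pair of members that the comparison leaves out, because the authors set their ratio to 1, had more reads in a single sex than a limit of 3 reads allows for the other. Hist1h2bm, an H2B gene, had 0 implied reads in male and 6 in female liver (0.17 RPKM, the floor, in male and 0.908 RPKM in female liver, adjusted p = 0.0651 in the authors' deposited table). Hist1h4h, an H4 gene, had 0 implied reads in male and 4 in female liver (0.189 RPKM, the floor, in male and 0.723 RPKM in female liver, adjusted p = 0.253 in the authors' deposited table). Neither passed the threshold.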

How the results depend on the processing

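Of the 10 compared members, 0 changed direction when the plain difference of log2 RPKM replaced the normalized ratio. The authors' p-values were not recomputed, so the 6 calls stay the same by construction and are not read as support. Called female-higher members numbered 3 where at least 10 implied reads over both sexes together were asked for. This leaves 7 members and drops Hist2h2bb and Hist2h3c1, whose reads are not implied, and Hist1h2ac. Hist1h1d, with 4 male and 25 female reads, passes through female liver, so neither this count nor the median under this filter is read as support. They numbered 5 at an adjusted p under 0.01 (background 6.05%). A filter at a log2 RPKM of 1 in a sex was run, but Hist2h2be passes it through female liver alone, so its count is not read here. The median log2 ratio was -0.62 with at least 10 implied reads, -0.61 with the added value taken off, each over 7 members, and -0.69 with the plain difference. The ratio of summed RPKM was 0.889 with the floor taken off and 0.704 without the 2 highest members. The 5 gene lists had 35, 10, 25, 45 and 19 compared genes, with E2f1 in both the supply and the S phase list. Calls over them numbered 32 at an adjusted p under 0.05, beside 7.21% male-higher and 10.2% female-higher of all compared rows. Under 0.01 they numbered 16, beside 4.16% male-higher and 6.05% female-higher. No paired analysis was possible because the table gives 1 value per sex; for the same reason no pool was left out. Implied depth limits members with under about 10 reads.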
